A study of Mus musculus with 6 samples.

Results

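RNA polymerase subunits were followed in a mouse acute myeloid leukaemia after its FLT3-ITD oncogene was switched off in the animal. The set comprised every row of the count table whose symbol began with Polr1, Polr2 or Polr3 followed by a letter. It also took Polrmt, the subunit gene Crcp, and Znrd1, Cd3eap and Twistnb, which are subunits under older names. It held 34 of 53733 named rows. Of these, 33 were subunits, an associated factor (Polr2m, counted here with the subunits) or the mitochondrial polymerase. The remaining 1 was a processed pseudogene, Polr2k-ps. All 33 genes passed the filter on low counts. Their lowest count in any library was 18, so that no gene passed only through the group in which it was high.

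The line, MLL-AF9/iFLT3-ITD, came from murine foetal liver cells that carried 2 retroviral vectors, the constitutive MSCV-Luc2-IRES-MLL-AF9 and the inducible TRE-tight-DsRED-IRES-FLT3-ITD. MLL-AF9 is a leukaemogenic fusion of a chromatin regulator, and FLT3-ITD is a constantly active form of a receptor tyrosine kinase. NSG mice, which lack mature lymphocytes but keep their own red and myeloid cells, were given these cells by tail vein and then doxycycline in food and water for 96 h. In the ON group (3 mice) doxycycline was continued, and in the OFF group (3 mice) it was withheld for 48 h. MLL-AF9 was thus present in both groups. Live leukaemic cells were taken from the marrow by sorting, and 1 library per mouse was read from the 3' ends of mRNAs. The sources used here do not give the ages of the mice or the gate of the sort. All 6 mice carried the same line, so p-values measure the spread between mice and not between lines. In such bulk samples, fewer cells of a type and less RNA per cell cannot be told apart.

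The libraries held 8335234 to 9316361 counts in named rows, and 1 count was worth 0.11 to 0.124 CPM (counts scaled to a common library size). OFF replicate 3 stood apart from the other 2 OFF libraries: the chi-square statistic divided by its degrees of freedom was 39.7 and 27.9 against OFF replicates 1 and 2, which gave 6.79 between themselves. The 7 listed markers of myeloid cells were all detected, and 5 of 7 (Ptprc, Mpo, Elane, Itgam and Meis1) rose in OFF, with sums of 1807 to 2079 CPM in ON and 3251 to 3523 CPM in OFF. Elane alone averaged 840 CPM in ON and 1626 CPM in OFF. Spi1 and Hoxa9 did not pass (adjusted p = 0.135 and 0.543 by edgeR). Whether these reads came from leukaemic or host myeloid cells was not tested. The only tested megakaryocyte marker, Gp1bb, also rose, and the 5 markers summed to 32.3 to 37.0 CPM in ON and 54.9 to 63.8 CPM in OFF. Nearly all of that sum was Gp1bb, which averaged 34.6 CPM in ON and 56.7 CPM in OFF. Pf4, Itga2b, Gp9 and Ppbp held at most 11 counts in any library. Red cell markers were higher in OFF: 5 of 5 tested genes (4 globins and Alas2) rose, and the 8 markers summed to 150 to 212 CPM in ON and to 577 to 933 CPM in OFF. Epor was at 0 in every library except OFF replicate 3, which held 2 counts. The 6 B cell markers summed to at most 0.868 CPM and the 6 T or NK cell markers to at most 2.85 CPM. The part of these marker changes in the results on subunits was not tested. Flt3 stood at 5.67 CPM in ON and 6.83 CPM in OFF on average (log2 fold change 0.27, adjusted p = 0.387 by edgeR). Whether transgene reads enter that row is not known, so it does not check the withdrawal.

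Cells divide nuclear transcription among 3 related enzymes. RNA polymerase I (Pol I) makes the large ribosomal RNA precursor, polymerase II (Pol II) makes mRNAs, and polymerase III (Pol III) makes tRNAs, the 5S ribosomal RNA and other short RNAs. Each has a pair of large catalytic subunits around which smaller ones are arranged, some held in common by all 3 enzymes and some by Pol I and Pol III alone. Output of Pol I and Pol III is known to follow growth signalling, and MYC is known to raise it. Polrmt is an unrelated single-chain enzyme that transcribes the mitochondrial genome.

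After withdrawal, most subunits held by Pol I alone and most of those common to all 3 enzymes fell. Subunits held by Pol III alone were divided among genes that fell, 1 that rose and genes that did not pass. Of the genes held by Pol II alone, 1 fell. By edgeR's quasi-likelihood test with Benjamini-Hochberg adjustment over 13652 rows, 16 of 33 genes fell (48.5%, against 17.5% of all tested rows) and 1 of 33 rose (3.03%, against 17.3% of all tested rows). The median log2 fold change, OFF minus ON, was -0.34 over the 33 genes and 0.0043 over all tested rows. Among genes particular to 1 enzyme in the textbook, 5 of 6 fell for Pol I, with a median of -0.73. For Pol III 5 of 11 fell and 1 rose, with a median of -0.34. For Pol II 1 of 8 fell, with a median of -0.15. Among these, the rows of Polr2c, Polr2i and Polr2j were not separated from genes that overlap them on the opposite strand. Of the 5 common subunits 4 fell, with a median of -0.59, and of the pair shared by Pol I and Pol III 1 fell, with a median of -0.39. The classes themselves were not tested against each other. Counting every gene listed for an enzyme, 10 of 13 fell for Pol I, 5 of 13 for Pol II and 10 of 18 for Pol III. The Pol II list includes Polr2m, an associated factor. The Pol III list includes both Polr3g and Polr3gl, which are alternatives to each other. The count of all subunits that fell was 19 without OFF replicate 3, and ranged from 12 to 19 when single libraries were dropped.

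**Figure D1:**
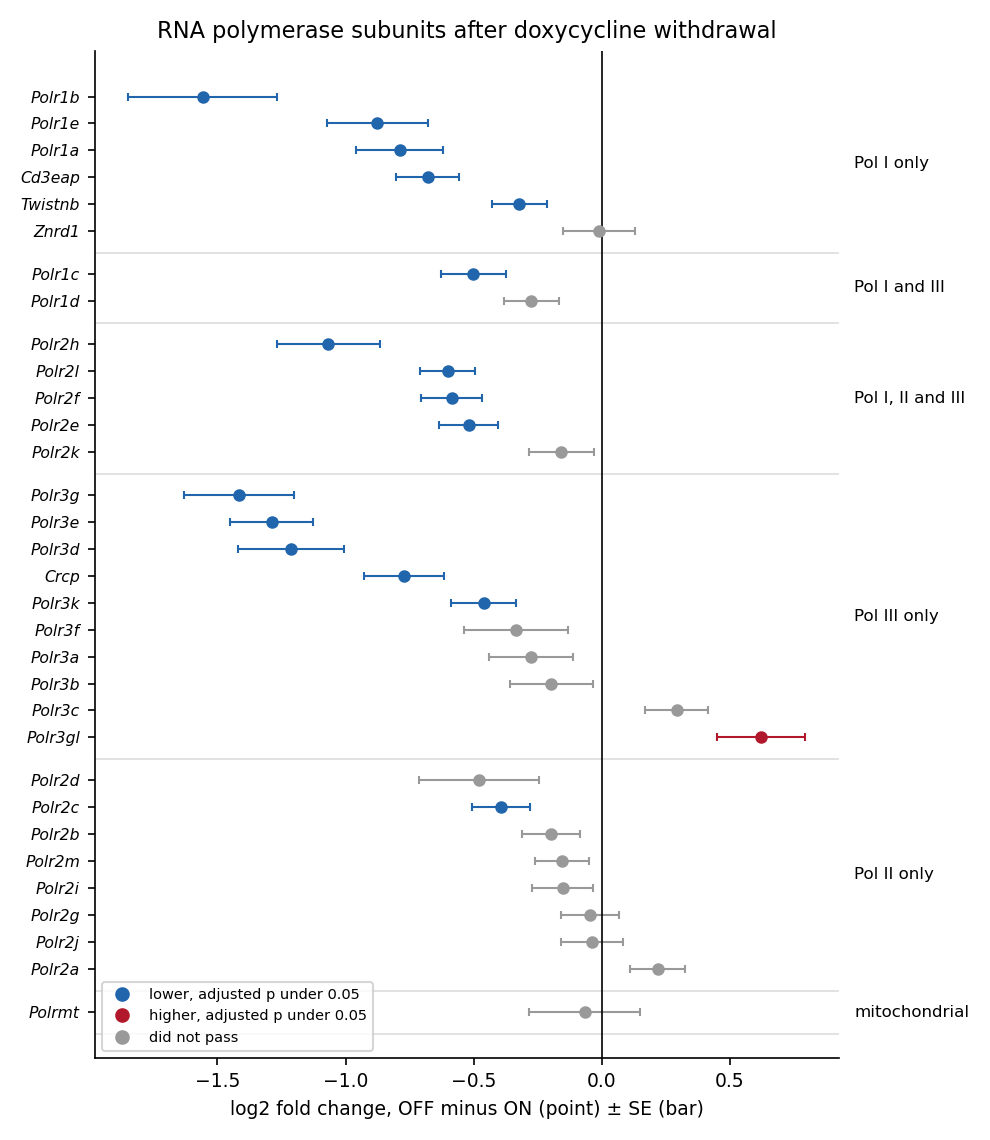
Log2 fold change (OFF minus ON, points) with its standard error (bars) for 32 of the 33 subunit genes, grouped by the polymerase that holds them and coloured by the outcome of the test. The Pol I and common classes lie mostly left of 0, between -1.56 and -0.01, while 7 of 8 genes held by Pol II alone did not pass.

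The catalytic subunits of Pol I fell. Polr1a, the largest subunit (GRCm38, chromosome 6, 71909053 to 71984935, plus strand), stood at 30.7, 33.6 and 32.6 CPM in ON replicates 1 to 3 and at 25.1, 14.9 and 16.1 CPM in OFF replicates 1 to 3. Every OFF value lay under every ON value, and OFF replicate 1 was the highest of its group. The log2 fold change was -0.79 (SE 0.17, adjusted p = 0.00249 by edgeR). Polr1b, the second large chain (chromosome 2, 129100995 to 129126594, plus strand), had 12.6, 9.68 and 12.8 CPM in ON and 6.11, 2.00 and 3.74 CPM in OFF. It gave the largest fold change of the 33 genes, -1.56 (SE 0.29, adjusted p = 0.00114 by edgeR), on 18 to 55 counts in the OFF libraries. The groups did not overlap in either gene, as was so in 24.5% of all tested rows in this direction.

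The catalytic subunits of Pol II did not pass. Polr2a, whose repetitive tail carries the marks that couple transcription to RNA processing (chromosome 11, 69733997 to 69758637, minus strand), had 58.9, 64.8 and 61.5 CPM in ON and 74.4, 65.4 and 75.6 CPM in OFF. All 3 OFF values were above the ON values, with a log2 fold change of 0.22 (SE 0.11, adjusted p = 0.137 by edgeR). Polr2b (chromosome 5, 77310147 to 77349324, plus strand) had 67.6, 63.8 and 65.5 CPM in ON and 65.3, 53.9 and 52.4 CPM in OFF, and these overlapped (-0.20, SE 0.11, adjusted p = 0.197 by edgeR, or 0.0362 without OFF replicate 1).

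The catalytic subunits of Pol III did not pass either. Polr3a (chromosome 14, 24448696 to 24487058, minus strand) had 12.1, 11.3 and 10.4 CPM in ON and 9.88, 7.91 and 10.1 CPM in OFF. The lowest ON value lay just above the highest OFF value (-0.28, SE 0.17, adjusted p = 0.214 by edgeR). Polr3b (chromosome 10, 84622292 to 84727178, plus strand) had 17.4, 15.5 and 17.4 CPM in ON and 17.0, 15.5 and 11.3 CPM in OFF (-0.20, SE 0.16, adjusted p = 0.369 by edgeR). OFF replicate 1 lay within the ON range, OFF replicate 2 barely under it (15.48 against 15.49 CPM in ON replicate 2) and OFF replicate 3 well under it.

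Ratios within a library, which need no scaling between libraries, compared the mRNAs of single catalytic subunits, not the enzymes themselves. Set to the ON mean as 100%, the ratio of Polr1a to Polr2a counts was 99.6%, 99.1% and 101% in ON and 64.5%, 43.6% and 40.6% in OFF. That of Polr1b to Polr2b was 105%, 86.0% and 111% in ON and 53.0%, 21.1% and 40.5% in OFF. The mean log2 ratios fell by 1.04 and by 1.49. For Pol III, the ratio of Polr3a to Polr2a was 72.9%, 66.4% and 73.5% in OFF, a log2 change of -0.50. Polr3a alone gave -0.28 and Polr2a alone 0.22, neither of which passed, so this ratio moved further than Polr3a did. That of Polr3b to Polr2b was 102%, 113% and 84.9% in OFF and 95.3% to 104% in ON, so that its groups overlapped. In an exact two-sided permutation test over 3 against 3 mice, the 3 ratios whose groups did not overlap gave p = 0.1, the smallest such a design allows (0.125 after adjustment over 5 ratios compared), and the last gave p = 0.9. Among single genes, 48.3% of all tested rows did not overlap between the groups in either direction.

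**Figure D2:**
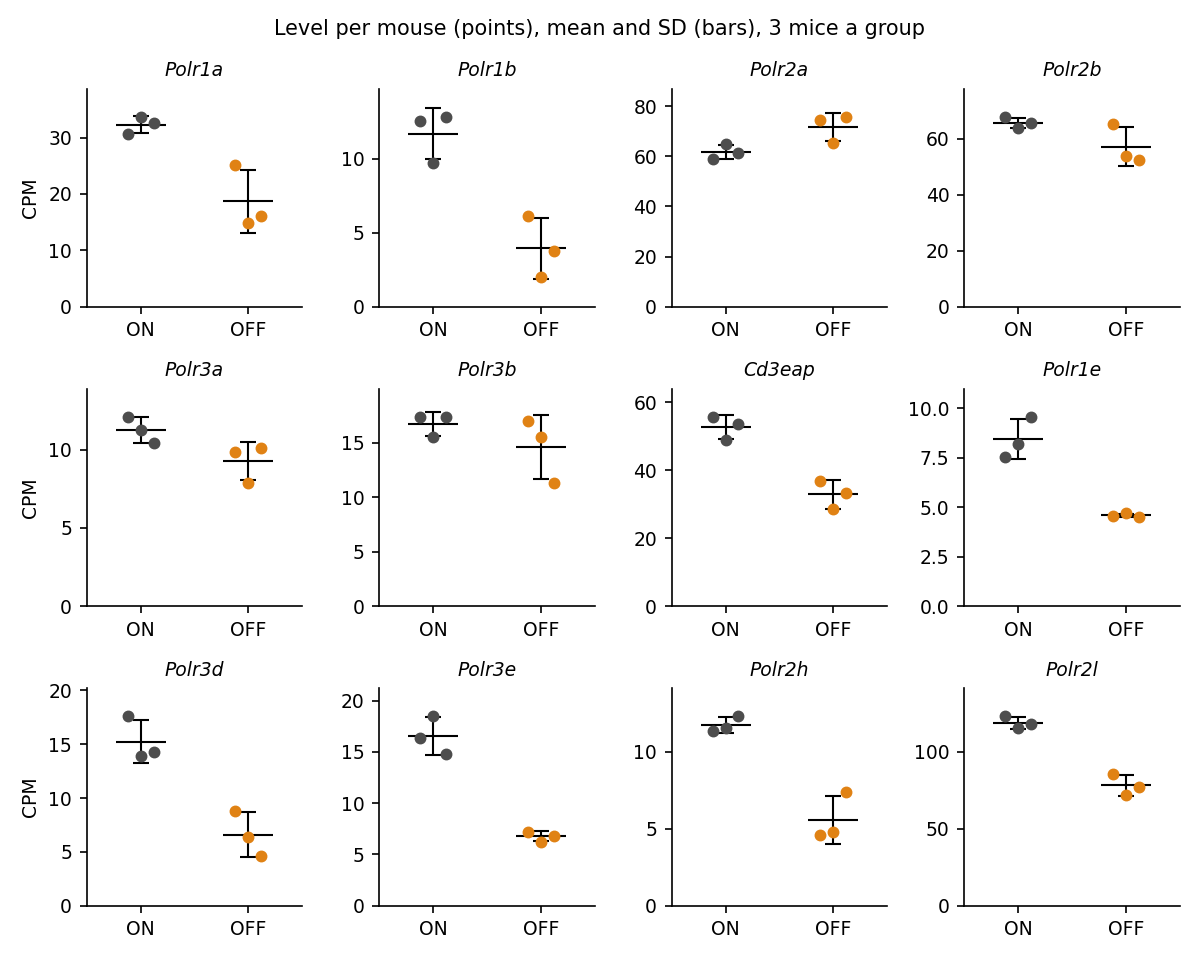
CPM in each mouse (points) with the mean and SD of 3 mice (bars) for the 6 catalytic subunits of the nuclear polymerases and 6 further subunits, each panel with its own axis from 0. The 3 OFF mice lie under the 3 ON mice for Polr1a, Polr1b, Polr3a and all 6 further subunits, above them for Polr2a, and overlap them for Polr2b and Polr3b. The 6 further subunits shown all passed downwards. Of all tested rows, 24.5% had OFF values wholly under ON and 23.8% wholly above.

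A pair of smaller subunits that sits on the flank of Pol I, and a related pair on Pol III, all fell. These pairs resemble the general factor TFIIF, which binds Pol II as a separate protein. In Pol I they are Polr1e and Cd3eap. Cd3eap (chromosome 7, 19356014 to 19359483, minus strand) had 55.7, 48.9 and 53.7 CPM in ON and 37.0, 28.5 and 33.3 CPM in OFF (-0.68, SE 0.12, adjusted p = 6.39e-04 by edgeR). Polr1e (chromosome 4, 45018583 to 45036565, plus strand) had 7.54, 8.20 and 9.55 CPM in ON and 4.55, 4.68 and 4.51 CPM in OFF (-0.88, SE 0.20, adjusted p = 0.0031 by edgeR). Neither overlapped between the groups, as was so in 24.5% of all tested rows in this direction. Cd3eap shares 106 exonic bases near its 3' end with Ercc1 on the opposite strand, whose counts were 0.111 to 0.176 of those of Cd3eap.

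In Pol III the pair is Polr3d and Polr3e. Polr3e (chromosome 7, 120917744 to 120947432, plus strand) had 16.3, 18.5 and 14.8 CPM in ON and 7.22, 6.24 and 6.82 CPM in OFF. With a log2 fold change of -1.29 (SE 0.16, adjusted p = 3.27e-05 by edgeR) it had the smallest p of the 33 genes. Polr3d (chromosome 14, 70438757 to 70443447, minus strand) had 17.6, 13.9 and 14.3 CPM in ON and 8.77, 6.35 and 4.62 CPM in OFF (-1.21, SE 0.21, adjusted p = 4.31e-04 by edgeR). The TFIIF genes that stand in their place at Pol II, Gtf2f1 and Gtf2f2, gave -0.23 and -0.22 (adjusted p = 0.237 and 0.136 by edgeR).

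Pol III also carries a trimer of Polr3c, Polr3f and either Polr3g or Polr3gl, which helps open the promoter. Polr3g and Polr3gl are paralogs that define alternative forms of the enzyme. Polr3g is known from embryonic stem cells and transformed cells, and Polr3gl is known as the more widely expressed form. Here they moved in opposite directions. Polr3g (chromosome 13, 81673843 to 81711013, minus strand) had 10.5, 10.8 and 9.80 CPM in ON and 4.22, 4.68 and 2.75 CPM in OFF (-1.42, SE 0.21, adjusted p = 1.59e-04 by edgeR). Polr3gl (chromosome 3, 96577872 to 96594181, minus strand) had 8.45, 8.88 and 6.95 CPM in ON and 13.4, 13.4 and 10.7 CPM in OFF (0.62, SE 0.17, adjusted p = 0.0112 by edgeR). It was the only subunit of the 33 that rose, and 23.8% of all tested rows had OFF values that lay wholly above ON. The call of Polr3gl was lost without ON replicate 3 (adjusted p = 0.0696) or OFF replicate 2 (adjusted p = 0.0528), while that of Polr3g held in each of 13 other settings.

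Of the summed counts of both paralogs, Polr3g made up 55.4%, 54.9% and 58.5% in ON and 23.9%, 25.9% and 20.5% in OFF. The exact binomial 95% intervals ran from 47.2% to 66.9% over the ON libraries and from 13.7% to 33.4% over the OFF libraries, which cover counting error only. The mean share was 56.3% ± 1.95 in ON and 23.4% ± 2.75 in OFF (SD, n = 3 in each group, p = 0.1 by an exact two-sided permutation test, the smallest possible). Both together summed to 18.5 ± 1.54 CPM in the 3 ON mice and 16.4 ± 2.57 CPM in the 3 OFF mice (mean ± SD). The other members of the trimer did not pass. Polr3f gave -0.34 (adjusted p = 0.222 by edgeR), with 7.15 CPM in OFF replicate 3 against 12.7 and 13.6 CPM in the other OFF libraries. Polr3c gave 0.29 (adjusted p = 0.0792 by edgeR), with 24.2 to 26.1 CPM in OFF above 19.8 to 22.2 CPM in ON, and passed upwards among rows of at least 10 CPM in 3 libraries (adjusted p = 0.0457).

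**Figure D3:**
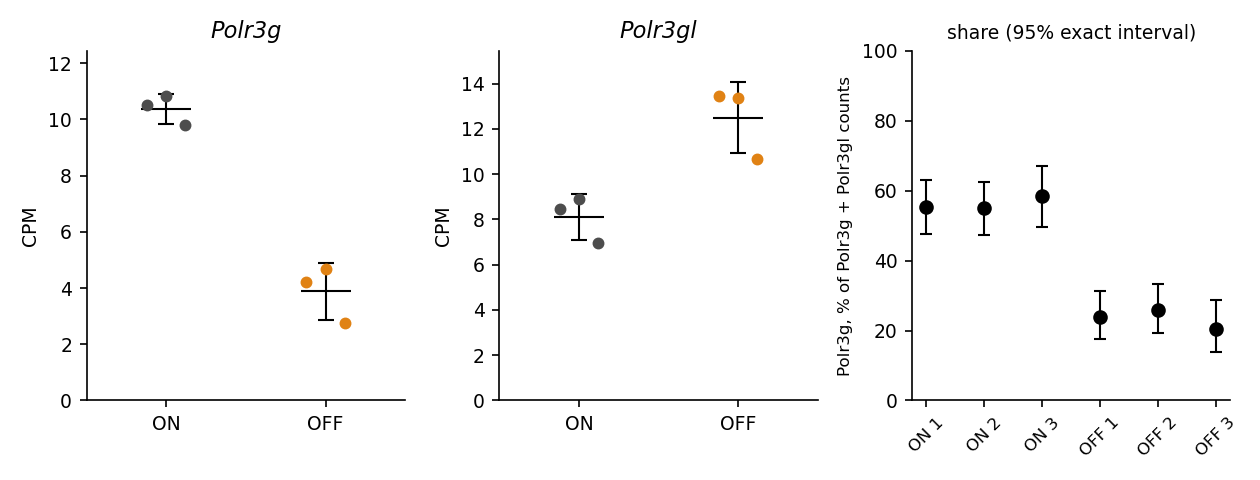
CPM of Polr3g and Polr3gl in each mouse (points, with mean and SD of 3 mice) and, at right, the share of Polr3g in the summed counts of the pair with its exact 95% interval. The share is 54.9% to 58.5% in ON and 20.5% to 25.9% in OFF.

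The 250 bases upstream of the annotated starts of this pair are shown because their genes moved oppositely. They are taken from RefSeq on GRCm38.p6, 5' to 3' on the gene's strand, and capitals mark an E-box (CACGTG, the site of MYC and related factors) or an ETS core (CCGGAAG or its complement on the other strand). The Polr3g stretch is chr13:81711014-81711263 on the minus strand and holds 1 ETS core starting 29 bases before the start. The Polr3gl stretch is chr3:96594182-96594431 on the minus strand and holds 1 E-box starting 194 bases before the start. They hold 68.4% and 59.2% G or C.
Polr3g: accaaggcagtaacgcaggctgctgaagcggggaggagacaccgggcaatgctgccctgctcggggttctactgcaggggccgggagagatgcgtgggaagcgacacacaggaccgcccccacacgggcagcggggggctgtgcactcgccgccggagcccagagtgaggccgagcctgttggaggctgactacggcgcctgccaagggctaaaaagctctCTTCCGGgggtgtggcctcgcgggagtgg
Polr3gl: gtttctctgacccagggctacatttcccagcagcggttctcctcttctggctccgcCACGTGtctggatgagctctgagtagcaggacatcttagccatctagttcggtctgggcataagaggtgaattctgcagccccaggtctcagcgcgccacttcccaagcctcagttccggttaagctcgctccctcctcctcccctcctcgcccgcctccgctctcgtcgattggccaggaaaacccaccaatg

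The same letters were searched on both strands in the 300 base promoters (250 bases before and 50 after the start) of the 26 members with an entry. An E-box occurred in 5 of 26 members (19.2%), against 12.2% of 8726 tested genes and 8.09% of all 27025 genes with an entry. It was in 3 of 14 members that fell (21.4%) and 2 of 12 others (16.7%). An ETS core occurred in 9 of 26 (34.6%), against 22.2% of tested and 9.93% of all genes. It was in 6 of 14 members that fell (42.9%) and 3 of 12 others (25%), namely Polr2j, Polrmt and Polr3b. A link of either motif with the fall was not tested. The NRF1 palindrome occurred in 0 of 26, against 2.53% of tested and 1.07% of all genes. Such a match is a description of letters only. E-boxes were found in Cd3eap, Polr3e and Polr2h, which fell, and also in Polr3gl, which rose, and in Polr3c, which did not pass. Cd3eap had 2. The E-boxes of Polr3e and Polr2h and the upstream one of Cd3eap are shown in capitals, with Cd3eap at chr7:19359674-19359723 on the minus strand, Polr3e at chr7:120917761-120917788 on the plus strand and Polr2h at chr16:20717827-20717854 on the plus strand.
Cd3eap: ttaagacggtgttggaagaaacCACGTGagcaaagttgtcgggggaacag
Polr3e: cgagggccggccccgctcccccCACGTG
Polr2h: tctgccctgtcttacttttctcCACGTG

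The common subunits, which are small chains in the core of all 3 enzymes, fell in 4 of 5 cases. Polr2h (chromosome 16, 20717665 to 20722267, plus strand) had 11.3, 11.5 and 12.3 CPM in ON and 4.55, 4.79 and 7.37 CPM in OFF (-1.07, SE 0.20, adjusted p = 8.52e-04 by edgeR). Polr2l (chromosome 7, 141471860 to 141475132, minus strand) had 123, 116 and 118 CPM in ON and 85.6, 72.2 and 77.3 CPM in OFF (-0.60, SE 0.11, adjusted p = 5.79e-04 by edgeR). In both genes the groups did not overlap, as in 24.5% of all tested rows in this direction. Polr2f and Polr2e gave -0.59 and -0.52 (adjusted p = 0.00154 and 0.00272 by edgeR). These 4 calls held in all 14 other settings. Polr2k did not pass (-0.16, adjusted p = 0.355 by edgeR), with 31.9, 36.2 and 42.4 CPM in OFF against 38.1 to 44.0 CPM in ON. Its pseudogene Polr2k-ps held 0 to 10 counts a library and was not tested. A count of 0, as in ON replicate 2, allows a level of up to 0.342 CPM there.

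The Polr1c and Polr1d proteins pair to form the platform on which Pol I and Pol III are assembled. Polr1c (chromosome 17, 46243920 to 46248054, minus strand) had 29.5, 33.5 and 27.5 CPM in ON and 23.1, 20.4 and 20.5 CPM in OFF (-0.50, SE 0.13, adjusted p = 0.00672 by edgeR). Polr1d (chromosome 5, 147077050 to 147111597, plus strand) had 117, 116 and 114 CPM in ON and 93.1, 87.9 and 106 CPM in OFF, also without overlap, but did not pass (-0.28, SE 0.11, adjusted p = 0.06 by edgeR). OFF replicate 3 was the highest of its group, and without it Polr1d passed (-0.35, adjusted p = 0.00355). Without ON replicate 2 the call of Polr1c was lost (adjusted p = 0.0555). The number of this pair that fell was therefore 0 without ON replicate 2 and 2 without OFF replicate 3.

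The corresponding platform of Pol II is formed by Polr2c and Polr2j. Polr2c (chromosome 8, 94857450 to 94873535, plus strand) had 62.1, 61.0 and 55.3 CPM in ON and 41.8, 43.5 and 50.6 CPM in OFF, and was the only subunit held by Pol II alone that fell (-0.39, SE 0.11, adjusted p = 0.0152 by edgeR). Its row cannot be told apart from its neighbour. The last 1000 exonic bases share 415 bases with Dok4 on the opposite strand, whose counts were 0.817 to 0.889 of those of Polr2c in every library and whose log2 fold change was -0.39 (adjusted p = 0.0229). The call of Polr2c did not survive dropping ON replicate 1 (adjusted p = 0.0775), ON replicate 2 (0.0744) or OFF replicate 2 (0.0652), nor did it pass in the authors' deposited log2 values (adjusted p = 0.0672 by limma). Polr2j gave -0.04 (adjusted p = 0.837 by edgeR), turned to 0.01 without ON replicate 2 and to 0.04 without OFF replicate 2, and shares 176 bases at its 3' end with Lrwd1.

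A stalk of small subunits binds the emerging RNA and, in Pol I, the initiation factor Rrn3. Twistnb, in the Pol I stalk (chromosome 12, 33429635 to 33441392, plus strand), had 61.9 to 65.5 CPM in ON and 47.0 to 53.6 CPM in OFF (-0.32, SE 0.11, adjusted p = 0.0301 by edgeR). Its call was lost in 7 of 14 other settings, including a replicate block (adjusted p = 0.0551) and the removal of any ON library or of OFF replicate 2. In the Pol III stalk, Crcp (chromosome 5, 130029290 to 130060789, plus strand) fell from 13.6 ± 0.712 CPM in 3 ON mice to 7.98 ± 0.596 CPM in 3 OFF mice (mean ± SD, log2 fold change -0.77, adjusted p = 0.00146 by edgeR) and held in all 14 other settings. In the Pol II stalk, Polr2g gave -0.05 (adjusted p = 0.787 by edgeR) and 0.00034 without ON replicate 1. Polr2d gave -0.48 on 34 to 61 counts (adjusted p = 0.129 by edgeR), with a pass downwards without OFF replicate 3 (adjusted p = 0.0296).

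Zinc ribbon subunits help each enzyme to cut its nascent RNA and resume. The Pol III one, Polr3k (chromosome 2, 181864337 to 181870830, plus strand), fell from 24.9 ± 1.17 CPM in 3 ON mice to 18.1 ± 1.28 CPM in 3 OFF mice (mean ± SD, log2 fold change -0.46, adjusted p = 0.0107 by edgeR). That call was narrowly lost without ON replicate 2 (adjusted p = 0.0518) or ON replicate 3 (adjusted p = 0.051). Znrd1 of Pol I was at 15.8, 18.0 and 15.0 CPM in ON and 14.7, 16.2 and 17.6 CPM in OFF. It was the only gene of the Pol I class that did not pass (-0.01, adjusted p = 0.961 by edgeR), and its sign turned in 4 of 14 other settings. Polr2i of Pol II gave -0.15 (adjusted p = 0.342 by edgeR). It shares 325 bases with Tbcb on the opposite strand, whose counts were 0.843 to 1.18 of its own. Polr2m, a protein that binds Pol II and makes it depend on the Mediator complex, had 44.7 to 46.5 CPM in ON and 41.1 to 41.3 CPM in OFF, and this gap did not pass (-0.15, adjusted p = 0.277 by edgeR).

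The mitochondrial polymerase did not pass. Polrmt (chromosome 10, 79736123 to 79746581, minus strand) had 6.28, 9.23 and 7.69 CPM in ON and 8.11, 5.46 and 8.58 CPM in OFF, which overlapped throughout (-0.07, SE 0.22, adjusted p = 0.842 by edgeR). Its sign turned without ON replicate 2 (0.08) or OFF replicate 2 (0.11).

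Averaged over the genes of a class, every OFF mouse lay under the ON mean in each class of nuclear subunits, by least in the Pol II class. The mean log2 level of the 6 Pol I genes, relative to the ON mean, was -0.50, -0.91 and -0.74 in OFF replicates 1 to 3. That of the 5 common genes was -0.61, -0.68 and -0.48, and that of the 11 Pol III genes -0.36, -0.45 and -0.63. The 8 Pol II genes gave -0.15, -0.25 and -0.07, against -0.03 to 0.04 in the ON libraries of that class. The ON libraries lay between -0.07 and 0.08 in all of these classes and in the pair shared by Pol I and Pol III, and the median of all tested rows was between 0.00 and 0.01 in the OFF libraries. Pol I genes were lowest in OFF replicate 2 and Pol III genes in OFF replicate 3. These class means rest on the members as chosen and carry no test.

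**Figure D4:**
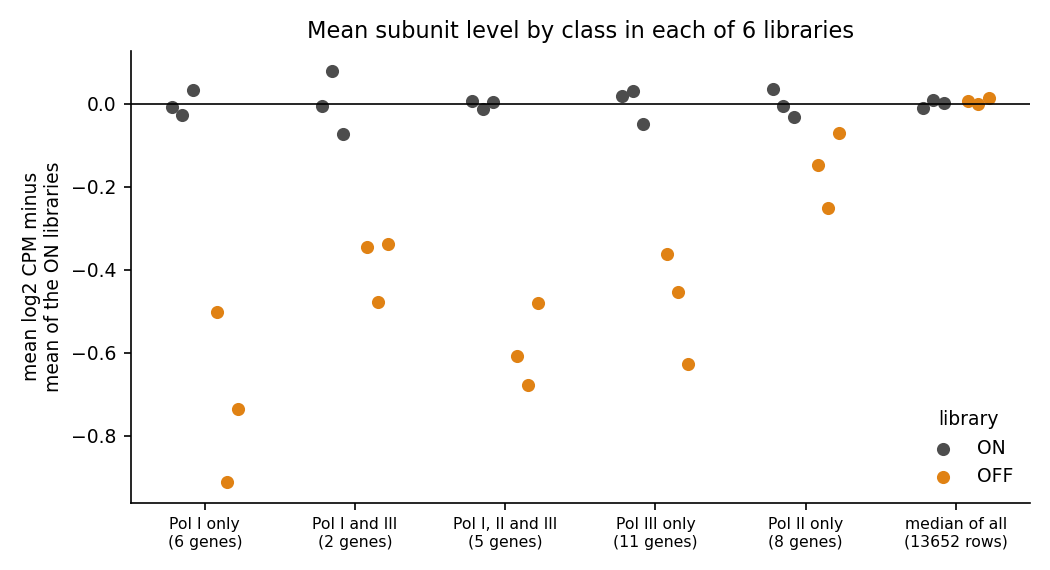
Mean log2 CPM of the tested genes of each class in each of 6 libraries, minus the mean of the 3 ON libraries, with the median over all 13652 tested rows at right. OFF points of the Pol I class lie at -0.91 to -0.50 and those of the Pol II class at -0.25 to -0.07.

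Factors that load and regulate the polymerases were read from 6 further lists. Among 85 tested companion genes, 25 fell (29.4%, against 17.5% of all tested rows) and 6 rose (7.06%, against 17.3%). The number that rose was 2 by DESeq2, 2 without ON replicate 1, 1 without ON replicate 2 or ON replicate 3, and 3 without OFF replicate 2 or OFF replicate 3. Pol I factors fell in 3 of 7 cases, with a list median of -0.29. Rrn3, which joins Pol I to its promoter and responds to growth signals, had 25.7, 24.7 and 25.8 CPM in ON and 15.7, 16.5 and 13.0 CPM in OFF (-0.76, SE 0.13, adjusted p = 5.67e-04 by edgeR). Its groups did not overlap, as in 24.5% of all tested rows in this direction, and the call held in all 14 other settings. Taf1d, a subunit of the Pol I promoter complex whose exons contain several small nucleolar RNAs, fell from 254 ± 16.8 CPM in 3 ON mice to 146 ± 36.0 CPM in 3 OFF mice (mean ± SD, -0.80, adjusted p = 0.00155 by edgeR). Ubtf, which bends ribosomal DNA at the promoter, fell from 76.5 ± 0.228 CPM in 3 ON mice to 62.5 ± 3.62 CPM in 3 OFF mice (mean ± SD, -0.29, adjusted p = 0.0394 by edgeR). That call was lost in 9 of 14 other settings, among them DESeq2 (adjusted p = 0.0566) and the removal of any ON library or of OFF replicate 2.

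Pol III factors fell in 6 of 17 cases and rose in 2 (median -0.21), against 17.5% and 17.3% of all tested rows. Only 1 rose once any single library other than OFF replicate 1 was removed. Maf1, the repressor that binds Pol III when nutrients or growth signals are withdrawn, had 20.0, 25.2 and 18.4 CPM in ON and 28.7, 31.9 and 37.4 CPM in OFF. It rose by 0.62 on the log2 scale (SE 0.15, adjusted p = 0.00422 by edgeR). Its groups did not overlap, as in 23.8% of all tested rows in this direction. Snapc5 rose by 0.46 (adjusted p = 0.0269 by edgeR), a call lost in 7 of 14 other settings. The initiation factor subunit Bdp1 gave -0.70 and Gtf3c6 of the promoter-binding complex gave -0.67 (adjusted p = 0.00242 and 0.00143 by edgeR). Brf1, which brings Pol III to tRNA genes, did not pass (0.20, adjusted p = 0.331 by edgeR).

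General factors of Pol II fell in 6 of 18 cases (3 without ON replicate 3), against 17.5% of all tested rows. Their median was -0.37, and 1 rose without OFF replicate 3. Gtf2h1, a core subunit of TFIIH, the factor that opens the promoter and phosphorylates the Pol II tail, had 84.6, 83.9 and 80.4 CPM in ON and 44.0, 34.8 and 28.1 CPM in OFF (-1.22, SE 0.14, adjusted p = 1.71e-05 by edgeR). Gtf2h5, another TFIIH subunit, gave -0.63 (adjusted p = 4.36e-04 by edgeR). Elongation factors of Pol II fell in 5 of 22 cases and rose in 3, with a median of -0.04 near that of all rows. Of all tested rows, 17.5% fell and 17.3% rose, and the list was not tested against them. Ell2 and Leo1 fell (-0.74 and -0.58, adjusted p = 0.00621 and 0.00844 by edgeR), and Supt4a and Ell rose (0.44 and 0.58, adjusted p = 0.0277 and 0.0329 by edgeR). The call of Supt4a was lost in 4 of 14 other settings and that of Ell in 7 of 13. Both were lost in the deposited log2 values (adjusted p = 0.076 and 0.0823 by limma), where 2 genes of the list fell and 1 rose. Without ON replicate 2 or ON replicate 3, 3 fell and 0 rose, and without ON replicate 1, 3 fell and 1 rose. Without OFF replicate 2 or OFF replicate 3, 1 rose.

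Assembly and import factors, which build the enzymes in the cytoplasm, fell in 5 of 13 cases and rose in 1 (median -0.27). The shares of all tested rows were 17.5% and 17.3%. The ATPase Ruvbl1 fell from 73.4 ± 3.54 CPM in 3 ON mice to 39.5 ± 8.11 CPM in 3 OFF mice (mean ± SD, -0.89, adjusted p = 1.63e-04 by edgeR), and Rpap3, its partner in a cochaperone complex, gave -0.83 (adjusted p = 0.00154 by edgeR). Pih1d1 of the same complex rose by 0.54 (adjusted p = 0.0258 by edgeR), and did not pass when any ON library or OFF replicate 3 was removed. Nor did it pass by DESeq2 (adjusted p = 0.0617) or in the deposited log2 values (adjusted p = 0.0753 by limma). The Pih1d1 row shares 42 bases near the 3' end with Aldh16a1 on the opposite strand, whose counts were 0.815 to 1.34 of its own. Aldh16a1 rose as well (0.46, adjusted p = 0.0261 by edgeR), and the 2 rows were not separated. Without ON replicate 1 or ON replicate 2, 3 of these factors fell. Of 8 tested mitochondrial transcription factors 0 passed by edgeR, with 1 (Mterf4, 0.40, adjusted p = 0.098) at an unadjusted p under 0.05 and 0 by DESeq2. Tfam, the mitochondrial DNA packaging and initiation factor, gave -0.26 (adjusted p = 0.179 by edgeR), and passed downwards without OFF replicate 1 (adjusted p = 0.0294), so that 1 of the list then fell.

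**Figure D5:**
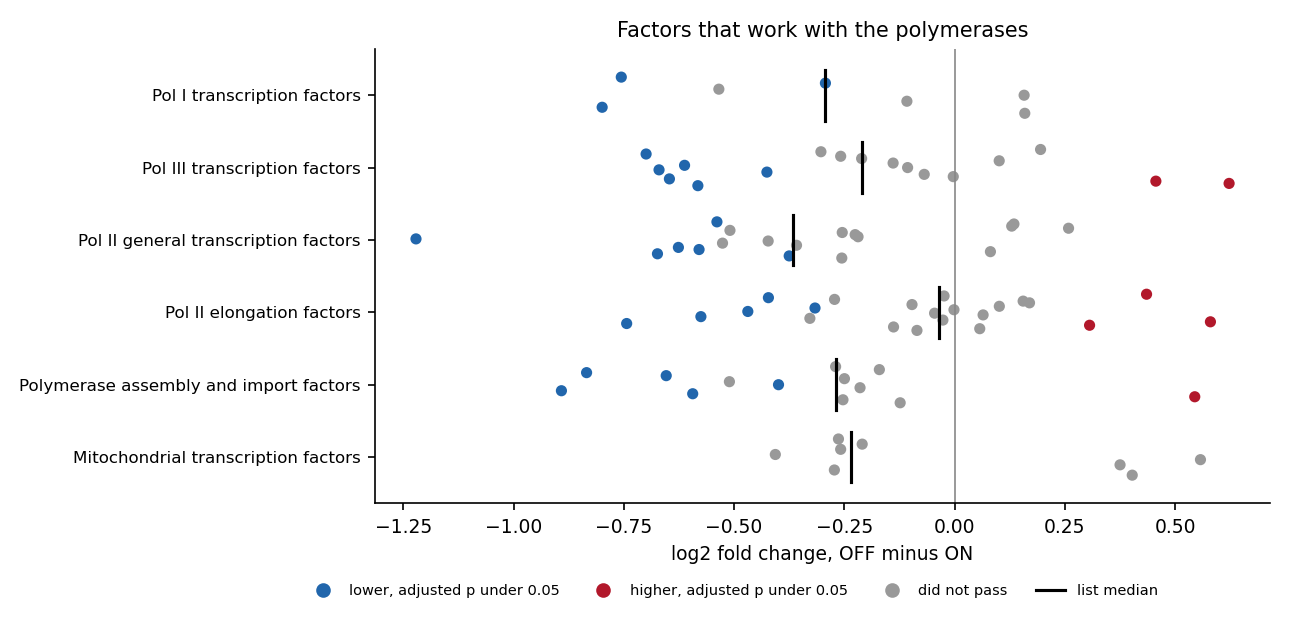
Log2 fold change (OFF minus ON) of each tested gene in 6 lists of factors that work with the polymerases, coloured by the outcome of the test, with the list median as a black bar. Medians run from -0.37 for Pol II general factors to -0.04 for Pol II elongation factors.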

How the data were processed

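Total RNA (TriZol, DNase, column) went into Lexogen QuantSeq 3' libraries, per the labels' protocols. The authors used HISAT2 2.0.4, Subread 1.6.3 with featureCounts and limma 3.42.2 on build mm10, per the submitters' processing notes. The sources used here do not give the annotation, the strand setting or the rule for shared reads. The deposited raw counts (54838 rows) included 1105 rows with no name, holding 0.145% to 0.172% of each library, which were left out. The authors' deposited log2 values served only as an alternative.

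The test used edgeR 4.0.16 under R 4.3.3: filterByExpr (minimum count 10, minimum total 15), TMM scaling, robust glmQLFit and glmQLFTest of OFF against ON with no covariate, and Benjamini-Hochberg adjustment over 13652 rows at 0.05. SE was taken as log2 fold change over the root of F. CPM uses TMM-scaled library sizes, with means and SD over 3 mice. Reads were not collapsed to molecules here, so limits and intervals from counts (3 counts for a count of 0) cover counting error only. The fit was tested on simulated data. Every pair of replicates differed by more than sampling noise. Locations and overlaps come from GENCODE M21 (GRCm38), with the 3' end taken as the last 1000 exonic bases of a principal transcript. Protein sequences were not used here, so that the planned protein comparison was not made.

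The members, classes and lists were chosen with earlier results of these data known, and no pattern here is independent support for another. Values in all 6 libraries are given for the catalytic subunits, Polr3g and Polr3gl, every subunit that rose and the 2 largest changes among called subunits in each class. The rule for companion genes took the 2 smallest p in each direction of each list, and Rrn3, Ubtf, Maf1, Brf1 and Tfam whatever their result. The values of 1 subunit, counted in the totals, are not reported here. Gtf2f1 and Gtf2f2, and the fuller values of other subunits, were chosen after values were seen. Alternatives were DESeq2 1.42.0, RLE and upper quartile scaling, leaving out ribosomal RNA locus and mitochondrial rows, 2 filters, the deposited log2 values with limma 3.58.1, a replicate block and leaving out each library in turn.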

Additional observations from a re-analysis of the deposited data

How the results depend on the processing

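In 14 other settings run for most genes, 12 of 17 called subunits kept their call and direction, 5 lost the call in at least 1 setting and 0 changed direction. Of 16 subunits that were not called, 5 passed in at least 1 setting. The replicate numbers pair no samples in the labels, and deviations of same-numbered libraries correlated at 0.035, -0.076 and -0.050; with a replicate block 15 subunits fell, against 16 without it, and 4403 rows of the whole table were called, against 4746. With single libraries left out, the number of subunits that fell was 4 to 5 for Pol I, 0 to 2 for Pol II, 4 to 6 for Pol III, 0 to 2 for the pair shared by Pol I and Pol III and 12 to 19 in all, the number that rose was 0 to 1, and companion genes gave 17 to 30 lower and 1 to 6 higher. The medians ranged over -0.82 to -0.62 for Pol I and -0.44 to -0.28 for Pol III. Among rows of at least 10 CPM in 3 libraries, where fewer genes were tested, 3 Pol I genes fell, with a median of -0.47, and 2 subunits rose. In the deposited log2 values 0 subunits held by Pol II alone fell, and 2 companion genes rose, as with DESeq2; the cause was not tested. Signs turned only in genes that did not pass: Znrd1 gave 0.017 with upper quartile scaling and 0.015 at 10 CPM, and with single libraries left out Znrd1 ranged from -0.074 to 0.069, Polr2j from -0.084 to 0.038, Polr2g from -0.13 to 0.00034 and Polrmt from -0.20 to 0.11. Low counts limit the precision of genes such as Polr1b (18 to 110 counts a library) and Polr2d (34 to 61).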
